A study of Mus musculus with 4 samples.

Results

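The vacuolar ATPase (V-ATPase) is the proton pump that acidifies lysosomes, endosomes and phagosomes, and 10 genes of the pump, of 41324 genes in the deposited table, are described here across a transcription stop in macrophages. They were taken by gene symbol: Atp6v0a1, Atp6v0b, Atp6v0c, Atp6v0d1, Atp6v0d2 and Atp6v0e of the membrane sector V0, Atp6v1a, Atp6v1b2 and Atp6v1h of the catalytic sector V1, and the accessory gene Atp6ap1. The cells were RAW264.7, an established mouse macrophage line, and the groups were untreated cells at 0 h and cells that had received 10 µg/ml actinomycin D for 2, 4 or 6 h, with 1 library per time. Actinomycin D intercalates into DNA and stops RNA polymerase, so that the messages present at its addition can be followed as they decay. Cytoplasmic RNA is the material named, and libraries were made after ribosomal RNA depletion. With 1 library per time no time point had a replicate, and the trend tests rested on how far the 4 libraries lay from a line. The tests draw the spread of each gene towards that of the other tested genes, so each p-value also rests on those genes.

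The pump works as a rotary motor. The V1 sector lies in the cytosol and hydrolyses ATP at the interface of its A and B subunits, and the V0 sector sits in the membrane and carries protons on a ring of small proteolipids (subunits c and c″) that turns against subunit a. Subunit d joins the ring to the V1 stalk, subunit H holds detached V1 inactive, and the accessory proteins Ap1 and Ap2 help V0 to assemble and to reach its membrane. Macrophages keep an active pump because it acidifies the phagosome and the lysosome, and osteoclasts, which can arise from the same lineage, use it to acidify the bone surface. Many pump and lysosome genes carry an E-box, the CLEAR element, to which the transcription factor TFEB and its relatives bind.

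Promoter windows of 300 bases, from RefSeq on the GRCm38.p6 build (mm10), could be matched for 7 of the 10 genes. They were searched for CACGTG, the core of the CLEAR element, and for the longer TCACGTGA that contains it, both of which read the same on either strand. CACGTG was found in 4 of these 7 genes, against 8.09% of 27025 genes with a window, whether or not they passed the abundance filter given below. TCACGTGA was found in 3 of 7 genes, against 1.12% of the same 27025 genes. A share among expressed genes only was not computed. The 4 windows that hold CACGTG are shown; capitals mark TCACGTGA, or CACGTG in Atp6v0b, where the longer word is not present. Atp6v0b and Atp6v0d1 read from the minus strand at chr4:117887280-117887579 and chr8:105566015-105566314, Atp6v0e from the plus strand at chr17:26676146-26676445 and Atp6v1a from the minus strand at chr16:44139210-44139509. A match describes these letters only.
Atp6v0b: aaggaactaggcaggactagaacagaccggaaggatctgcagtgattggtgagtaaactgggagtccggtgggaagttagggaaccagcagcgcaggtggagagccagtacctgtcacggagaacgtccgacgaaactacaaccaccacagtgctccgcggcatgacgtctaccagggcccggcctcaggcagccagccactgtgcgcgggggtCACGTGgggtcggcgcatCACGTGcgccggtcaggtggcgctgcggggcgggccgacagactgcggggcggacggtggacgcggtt
Atp6v0d1: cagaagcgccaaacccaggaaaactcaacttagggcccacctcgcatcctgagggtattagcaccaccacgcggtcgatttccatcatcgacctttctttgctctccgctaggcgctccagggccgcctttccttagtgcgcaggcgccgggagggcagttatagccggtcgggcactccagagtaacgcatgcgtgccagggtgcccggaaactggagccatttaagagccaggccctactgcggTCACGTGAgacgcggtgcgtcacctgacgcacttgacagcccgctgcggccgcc
Atp6v0e: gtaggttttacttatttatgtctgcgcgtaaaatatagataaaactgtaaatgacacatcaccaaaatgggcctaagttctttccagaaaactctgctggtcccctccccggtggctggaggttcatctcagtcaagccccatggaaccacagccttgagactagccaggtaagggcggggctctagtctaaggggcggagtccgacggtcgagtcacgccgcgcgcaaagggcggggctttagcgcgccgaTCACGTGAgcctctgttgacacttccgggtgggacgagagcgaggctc
Atp6v1a: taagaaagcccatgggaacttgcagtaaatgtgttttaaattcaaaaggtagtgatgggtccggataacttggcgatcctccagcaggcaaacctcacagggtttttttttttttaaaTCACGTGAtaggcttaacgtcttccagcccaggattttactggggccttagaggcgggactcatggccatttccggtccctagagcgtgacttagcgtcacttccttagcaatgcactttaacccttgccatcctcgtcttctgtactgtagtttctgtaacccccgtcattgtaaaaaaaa
Counted from 1 at the 5′ end of the window, CACGTG begins at bases 215 and 233 in Atp6v0b, at 248 in Atp6v0d1, at 254 in Atp6v0e and at 120 in Atp6v1a. None of the windows matched for Atp6v0a1, Atp6v0c and Atp6ap1 holds CACGTG. The windows of Atp6v0a1 (chr11:101010148-101010447), Atp6v0e and Atp6v1a lie wholly within the GENCODE bounds of their genes. For these genes the bases before the outermost annotated start were not searched. Of the 12 other subunit genes with a window, 0 hold it.

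The 4 libraries held between 12762100 counts (6 h) and 70289647 counts (4 h). All 8 macrophage markers were present, with a summed level of 3401 to 5163 CPM (counts divided by the library's depth, on a common scale), whereas 10 of 15 markers of fibroblasts, T cells, B cells and epithelium had 0 counts in every library and the others had at most 15. Levels over time are given as CPM against the effective library size after TMM, a scaling that sets the typical gene near no change. A slope above 0 therefore belongs to a message that lost less than the typical message, lost none or gained, and these cannot be told apart. Of the 10 genes, 8 passed the abundance filter (a mean of at least 1 CPM), and Atp6v0c and Atp6v0d2 did not.

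Most of the abundant V-ATPase messages rose relative to the typical message after TMM scaling. With edgeR's quasi-likelihood test of a slope and Benjamini-Hochberg adjustment over 10837 genes, 6 of the 8 tested genes rose (Atp6v1a, Atp6v0e, Atp6v0a1, Atp6ap1, Atp6v1h and Atp6v0d1), against 8.03% of all tested genes. None fell with edgeR, against 16.8% of all tested genes. At an unadjusted p under 0.05 also 0 fell with edgeR, against 2888 of the 10837 tested genes. With the DESeq2 test 0 fell, against 2162 of the 10837. The median slope of the 8 was 0.08 log2 per h and that of all tested genes 0.0014, and their median level stood at 118%, 126% and 139.5% of untreated at 2, 4 and 6 h. The number of calls changed when a library was left out, for these genes and for all tested genes. Without the 4 h library 0 of 8 passed, where 0.231% of all genes rose and 3.29% fell. The median slope of the 8 in that fit was 0.0766 log2 per h, against 0.0785 with all 4 libraries. At an unadjusted p under 0.05, 5 of the 8 rose in that fit, and the share of all genes at that threshold is not given. Without the untreated library 3 rose (Atp6v0a1, Atp6v1a and Atp6ap1), as did 6.54% of all genes. Without the 2 h library 3 rose (Atp6v0e, Atp6v1a and Atp6ap1; 4.0% of all genes rose and 18.1% fell), and without the 6 h library 5 rose, the same genes but for Atp6v0a1 (11.7% of all genes). The same 6 genes rose with DESeq2 size factors (8.9% of all genes), with no abundance filter (4.96%) and with a mean of at least 5 CPM (10.1%, while 19.4% fell), and with the DESeq2 test Atp6v0b joined them (14.1%).

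**Figure D1:**
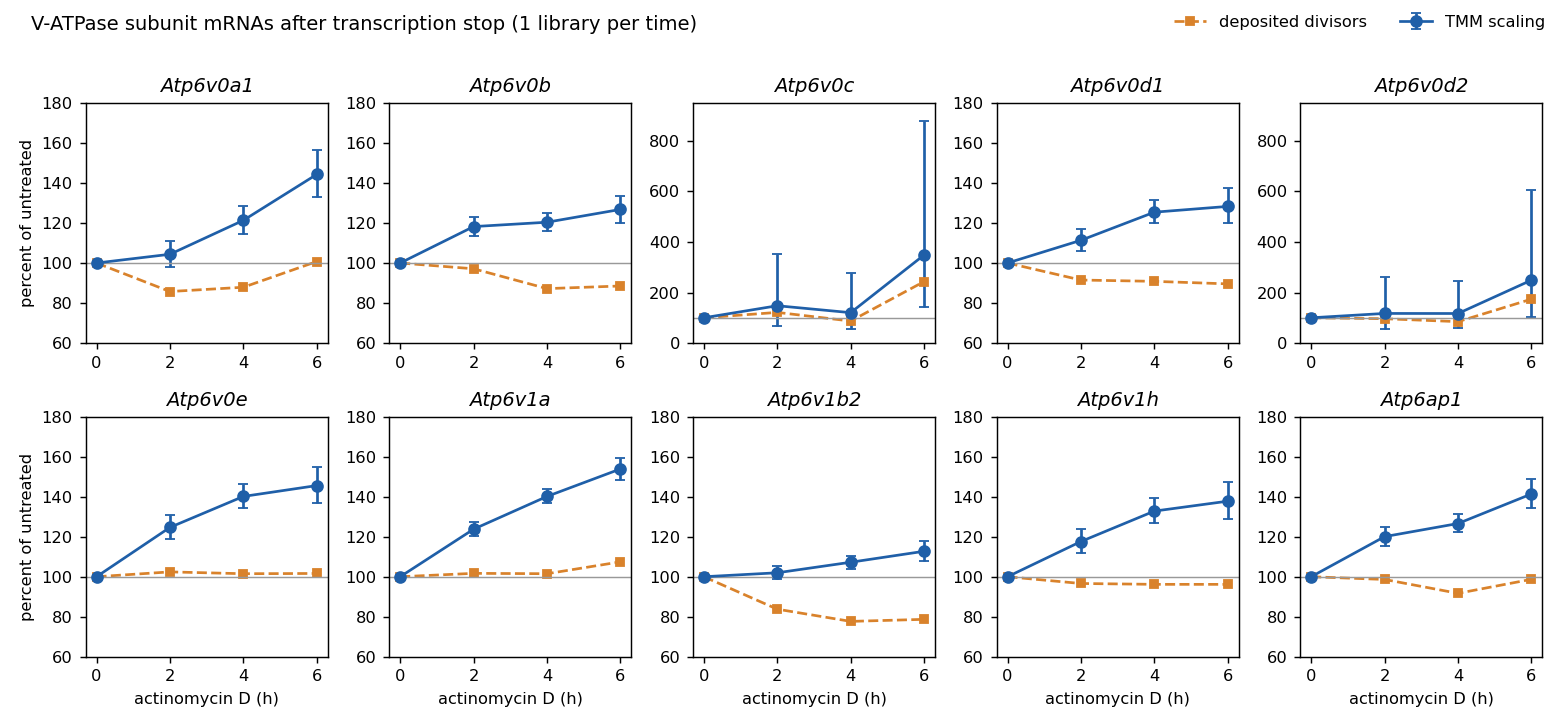
Level of each of the 10 genes as percent of the untreated library (y axis) at 0, 2, 4 and 6 h of actinomycin D (x axis), 1 library per time. Blue points are TMM-scaled with exact 95% counting intervals against the untreated count, orange squares are the authors' deposited normalized values, and Atp6v0c and Atp6v0d2 have a wider axis; in blue, the 8 abundant genes stand at 113% to 154% of untreated at 6 h, and in orange at 78.7% to 107%.

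In the V0 sector, Atp6v0a1 encodes an isoform of subunit a, which forms the proton path with the ring. It lies at chr11:101009452-101063719 (plus strand, mm10, GENCODE), and had 53.1, 55.4, 64.4 and 76.5 TMM-scaled CPM at 0, 2, 4 and 6 h. The level moved little by 2 h (104% of untreated, counting interval 97.9 to 111%) and was highest in the 6 h library (144%, 133 to 156%). Its slope (± SE) was 0.09 ± 0.02 log2 per h, with an edgeR adjusted p of 0.0339. The call was lost when the 2 h, 4 h or 6 h library was left out (adjusted p = 0.0596, 0.112 and 0.0807).

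Atp6v0b encodes the proteolipid c″ of the ring. The gene lies at chr4:117884326-117887333 (minus strand), and 243 of its exonic bases overlap Gm12841 on the other strand. Levels were 134, 158, 161 and 169.9 TMM-scaled CPM at 0, 2, 4 and 6 h, so that most of the difference from untreated was already there at 2 h (118%) and the 6 h library stood at 127% (120.2 to 134%). The slope of 0.05 ± 0.02 log2 per h did not pass (edgeR adjusted p = 0.0709), and it passed with DESeq2 (adjusted p = 0.0251).

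Atp6v0d1, the widely expressed isoform of the connecting subunit d, lies at chr8:105524465-105566047 (minus strand). It had 80.2, 89.2, 100.5 and 103 TMM-scaled CPM at 0, 2, 4 and 6 h, and stood at 128% of untreated at 6 h (119.7 to 137%). The slope was 0.06 ± 0.01 log2 per h (edgeR adjusted p = 0.0439), and the adjusted p was 0.0964, 0.0994 and 0.177 without the untreated, the 2 h and the 4 h library.

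Atp6v0e, a small hydrophobic subunit of V0, lies at chr17:26663231-26699647 (plus strand). It had 88.1, 109.8, 123 and 128 TMM-scaled CPM at 0, 2, 4 and 6 h. The untreated library was the lowest and the gap between neighbouring times shrank along the course, with log2 steps of 0.32, 0.17 and 0.05. Atp6v0e was the only one of the 8 to pass the test of a bend (−0.02 ± 0.0047 log2 per h squared, edgeR adjusted p = 0.0286), a flattening that 10.6% of all tested genes also showed, while 18.0% bent upward. Its slope was 0.09 ± 0.02 log2 per h (edgeR adjusted p = 0.0382; 0.0566 without the untreated and 0.12 without the 4 h library).

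In the V1 sector, Atp6v1a encodes the catalytic subunit A and was the most abundant of the 10 genes in raw counts, with 7974, 14034, 27868 and 4929 counts at 0, 2, 4 and 6 h. The gene lies at chr16:44085402-44139705 (minus strand). Its levels of 262, 325, 367 and 403 TMM-scaled CPM gave 124%, 140.1% and 154% of untreated at 2, 4 and 6 h, with a 6 h counting interval of 148 to 159%. Its slope was the steepest of the 8, 0.10 ± 0.01 log2 per h (edgeR adjusted p = 0.023), and exceeded that of 93.8% of all tested genes. The adjusted p was 0.00903, 0.0266 and 0.0202 without the untreated, the 2 h and the 6 h library, and 0.0827 without the 4 h library.

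Atp6v1b2 encodes the B subunit isoform of macrophages and most other cells, which shares the nucleotide sites with A. It lies at chr8:69088646-69113711 (plus strand). Levels of 194, 198, 208 and 219 TMM-scaled CPM at 0, 2, 4 and 6 h lay close together, at 102%, 107% and 113% of untreated. The slope of 0.03 ± 0.01 log2 per h was the smallest of the 8 and did not pass (edgeR adjusted p = 0.113; 0.111 with DESeq2). Its position among all tested genes was percentile 62.6.

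Atp6v1h, the regulatory subunit H, lies at chr1:5070018-5162529 (plus strand), with 127 exonic bases opposite to exons of Rgs20. It had 77.3, 90.8, 103 and 106 TMM-scaled CPM at 0, 2, 4 and 6 h, and stood at 138% of untreated at 6 h (129 to 147%). The slope was 0.08 ± 0.02 log2 per h (edgeR adjusted p = 0.0365), with adjusted p of 0.0589, 0.0587 and 0.137 without the untreated, the 2 h and the 4 h library.

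The accessory gene Atp6ap1, whose product binds V0, lies at chrX:74297097-74304721 (plus strand). It had 128, 154, 162 and 181 TMM-scaled CPM at 0, 2, 4 and 6 h, which is 120.04%, 127% and 141% of untreated. The slope was 0.08 ± 0.01 log2 per h (edgeR adjusted p = 0.0317). Like the call of Atp6v1a, that of Atp6ap1 was lost without the 4 h library (adjusted p = 0.114) and held without any other 1 library.

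Both genes under the filter had few counts. Atp6v0c, the main proteolipid c of the ring, had 10, 21, 30 and 14 counts at 0, 2, 4 and 6 h, against 4074, 6848, 12232 and 2075 for its partner proteolipid Atp6v0b. It lies at chr17:24163866-24169702 (minus strand), and 32.5% of the 50-base words of its main transcript also occur in annotated transcripts of the pseudogenes Atp6v0c-ps1 and Atp6v0c-ps2. The authors' treatment of reads that match several places was not given in the sources used here. The part of this overlap in the low count was not tested, so its count is uncertain as a measure of the message. Atp6v0d2, the d isoform known from mouse osteoclasts and some macrophages, had 12, 20, 35 and 12 counts. It lies at chr4:19876841-19922605 (minus strand), and none of its 50-base words occur in another gene.

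Relative to untreated, Atp6v0d2 stood at 117%, 117% and 249%, with a 6 h counting interval of 102 to 606%. For Atp6v0c the values were 148%, 120.3% and 348%, with a 6 h interval of 144 to 877%. Without an abundance filter the edgeR test gave neither a call. The Atp6v0d2 count was 0.492%, 0.518%, 0.459% and 0.955% of the Atp6v0d1 count in the same library, and the intervals of the 6 h (0.492 to 1.67%) and untreated libraries (0.254 to 0.862%) overlapped. Of 16 osteoclast-lineage genes in the same libraries, 10 passed the abundance filter. The calcitonin receptor Calcr had 0 counts throughout and the bone protease Ctsk between 1 and 22, while the fusion gene Dcstamp had 427, 525, 990 and 207 counts at 0, 2, 4 and 6 h and the phosphatase Acp5 had 94, 131, 254 and 39.

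Ratios within a library do not depend on how libraries are scaled. The count of Atp6v1a over that of Atp6v1b2 was 1.35, 1.64, 1.76 and 1.84 at 0, 2, 4 and 6 h. The ratio of every treated library (exact binomial interval 1.76 to 1.93 at 6 h) lay above that of the untreated library (1.30 to 1.4), counting error alone considered. The summed count of the 3 V1 genes over that of the 6 V0 genes was 1.5, 1.48, 1.51 and 1.52, with the intervals of the 6 h (1.47 to 1.57) and untreated libraries (1.46 to 1.54) overlapping. The spread between libraries is not covered by these intervals, and the sums hold only the 9 sector genes described, not abundant subunits such as Atp6v1c1 and Tcirg1.

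**Figure D2:**
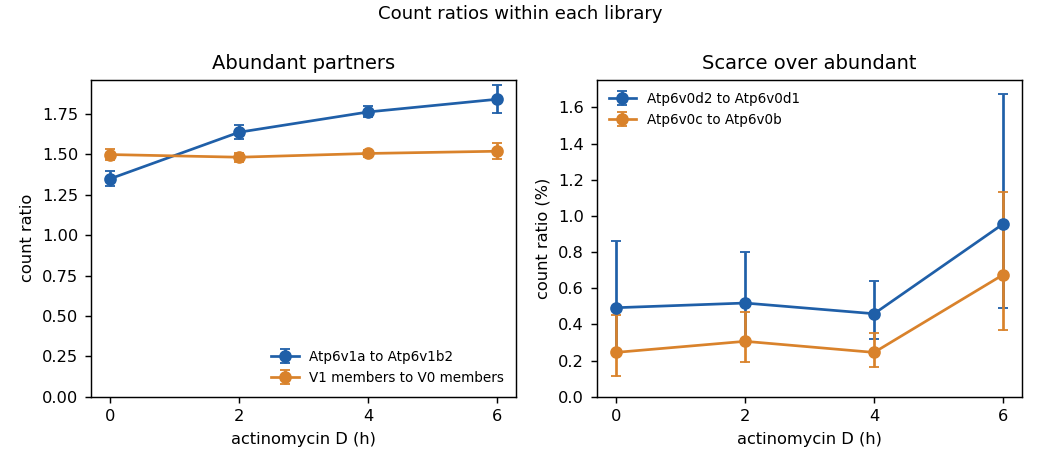
Ratio of raw counts (y axis) within each library against hours of actinomycin D (x axis), with exact binomial 95% intervals that cover counting error only; the right panel is in percent. Atp6v1a over Atp6v1b2 climbs to 1.84 at 6 h, V1 over V0 stays between 1.48 and 1.52, and the scarce Atp6v0d2 and Atp6v0c stay under 1% of their partners.

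Levels of different genes were compared per length, as CPM of the library total per kb of the main GENCODE transcript. In untreated cells the order was Atp6v0b (114), Atp6v1b2 (58.6), Atp6v1a (52.8), Atp6ap1 (49.9), Atp6v0d1 (41.9), Atp6v1h (32.1), Atp6v0e (26.7) and Atp6v0a1 (11.3), with Atp6v0c at 0.237 and Atp6v0d2 at 0.133. At 6 h Atp6v0b was still highest (163), and Atp6v1a (91.2) stood above Atp6v1b2 (74.2). Atp6ap1 was at 79.2, and its 6 h counting interval (75.9 to 82.6) overlapped that of Atp6v1b2 (71.4 to 77.1). The order depends on the length used: per kb of all annotated exons, untreated Atp6v0d1 (38.1) and Atp6v1a (37.0) followed Atp6v0b (55.7). Atp6ap1 (36.1) then stood above Atp6v1b2 (31.2) already in untreated cells, and Atp6v1h (6.76) was the lowest of the abundant genes. By counting error alone, the intervals of neighbours in the untreated order per main transcript overlapped for Atp6v0c and Atp6v0d2 and for no other pair.

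Of 15 further subunit genes of the pump 9 passed the filter. Of these, 3 rose and 0 fell with edgeR, against 8.03% and 16.8% of all tested genes. At an unadjusted p under 0.05, 5 rose and 0 fell with edgeR, against 2195 and 2888 of the 10837 tested genes. With the DESeq2 test 4 rose and 0 fell, against 1529 and 2162 of the 10837. The median slope of the 9 was 0.05 log2 per h, against 0.08 for the 8 and 0.0014 for all tested genes. Atp6ap2, the accessory protein also known as the prorenin receptor, had the steepest slope of any pump gene (0.12 ± 0.02, edgeR adjusted p = 0.0372) and had 86.3, 116, 138 and 141 TMM-scaled CPM at 0, 2, 4 and 6 h. Atp6v1c1, the stalk subunit C, had a slope of 0.09 (edgeR adjusted p = 0.0305) and Atp6v0e2, the paralog of Atp6v0e, one of 0.09 (edgeR adjusted p = 0.0493). Without the 4 h library, where 0.231% of all genes rose, none of these 3 passed (adjusted p = 0.0912, 0.103 and 0.181 for Atp6ap2, Atp6v1c1 and Atp6v0e2). Atp6v0e2 was also lost without the untreated (0.212) and without the 2 h library (0.0826).

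Of the a isoforms, Atp6v0a1 alone passed the test. Beside it, at 144% of untreated at 6 h, Atp6v0a2 stood at 104% (slope 0.01 ± 0.01, edgeR adjusted p = 0.517). Tcirg1, the a3 isoform of osteoclast and macrophage lysosomes, stood at 108% (slope 0.02 ± 0.02, adjusted p = 0.484), after 96.7% at 2 h and 95.4% at 4 h. In counts Tcirg1 was the most abundant a isoform of the untreated library (4185 counts, against 2580 for Atp6v0a2 and 1613 for Atp6v0a1). The differences between isoform slopes were not tested. The kidney isoforms Atp6v0a4, Atp6v1b1 and Atp6v1g3 and the testis isoform Atp6v1e2 had 0 to 2 counts in every library, as had Atp6v1c2, and Atp6v1g2 had 10 to 59.

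**Figure D3:**
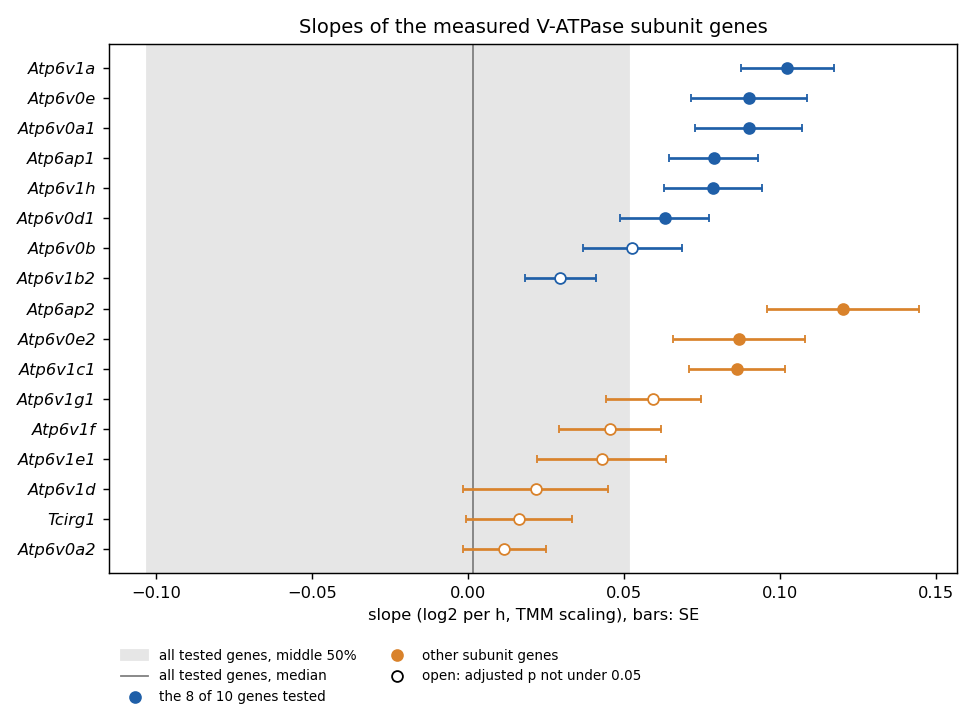
Slope in log2 per h after TMM scaling (x axis) with its SE, for the 17 pump genes that passed the abundance filter (rows), the 8 described here in blue and 9 other subunits in orange; filled points passed the edgeR test, and grey shows the middle of all tested genes (lower to upper quartile, −0.10 to 0.05). All 17 points lie right of the median of all tested genes (0.0014), and 9 points are filled.

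The direction of a slope depended on the scaling. Relative to TMM, the median of all tested genes shifted over the 6 h by 0.13 log2 when libraries were scaled by total counts, by −0.35 with summed ribosomal protein messages and by −0.53 with the divisors of the deposited normalized values. Falls made up 67.6% of calls with TMM, 86.5% with total counts, 95.3% with ribosomal protein scaling and 98.6% with the deposited divisors. With total counts 0 of the 8 genes passed with edgeR, where 1.89% of all genes rose and 12.2% fell, although all 8 slopes were above 0. At an unadjusted p under 0.05 also 0 passed, and the share of all genes at that threshold is not given. With ribosomal protein scaling Atp6v1a alone rose (1.14% of all genes rose and 23.3% fell), and Atp6v0b and Atp6v1b2 had slopes of −0.0052 and −0.03. With the deposited divisors 0 rose and 0 fell, against 0.664% and 45.8% of all genes. At an unadjusted p under 0.05, 2 fell, and the share of all genes at that threshold is not given. The DESeq2 test was run with its own size factors. Slopes with the deposited divisors ran from −0.06 for Atp6v1b2 to 0.02 for Atp6v1a. A scaling shifts the slopes of all genes nearly alike, so the gap between the median of the 8 and that of all tested genes (0.0750 to 0.0778 log2 per h over the 5 scalings) is nearly fixed and tests nothing. When each library was left out in turn, all 8 slopes lay above the median of all tested genes. Bends also turned with the scaling. Atp6v0e alone bent with DESeq2 size factors (downward, as did 9.5% of all genes, against 19.1% upward) and at a mean of at least 5 CPM (13.8% downward, 19.4% upward). With total counts 6 genes bent downward (44.1% of all genes, against 6.16% upward), all of the 8 but Atp6v0a1 and Atp6v1b2, and with the deposited divisors those 2 bent upward (28.9% of all genes, against 0.517% downward).

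**Figure D4:**
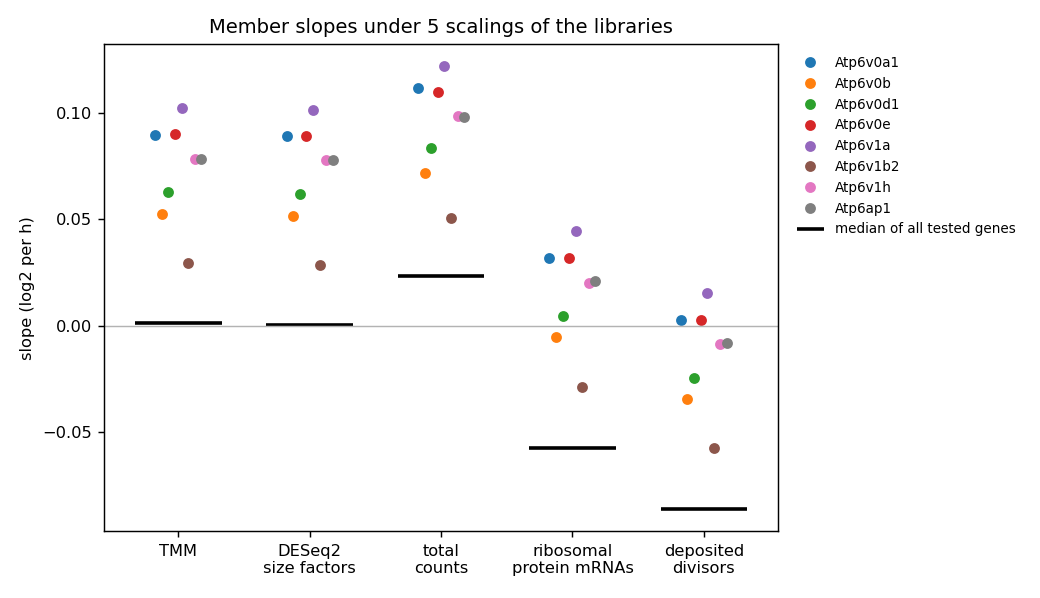
Slopes of the 8 abundant genes in log2 per h (y axis) under 5 ways of scaling the libraries (x axis), with the median of all tested genes as a black bar. Points and bar shift together by construction: the median of all genes is 0.0014 with TMM and −0.09 with the deposited divisors, where 5 of the 8 points that lie above 0 with TMM lie below 0.

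On the scale of the deposited normalized values, the 8 abundant genes stood between 78.7% (Atp6v1b2) and 107% (Atp6v1a) of untreated at 6 h. The deposited normalized values of Atp6v1a were 6.13, 6.24, 6.23 and 6.59 at 0, 2, 4 and 6 h, and those of Atp6v0e 2.06, 2.11, 2.09 and 2.09. Atp6v1b2 lay at the other end with 4.55, 3.81, 3.53 and 3.58. Half-lives in the authors' deposited table were 10.2 h for Atp6v1b2, 16.8 h for Atp6v0a1, 22.9 h for Atp6v0b, 24.7 h for Atp6v0d1, 37.1 h for Atp6ap1 and 61.9 h for Atp6v1h. For Atp6v0e and Atp6v1a the authors' deposited table gives negative half-lives (−129 and −149 h), which mark values that did not fall, as they do for 9.12% of tested genes. The median decay rate of all tested genes in the authors' deposited table corresponds to 8.56 h, and that of the 8 genes to 29.6 h.

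All 14957 deposited half-lives could be recomputed, to a relative tolerance of 1e-06, as a line through the untreated value fitted to the natural log ratios at 2 and 4 h, so the 6 h library does not enter them. The same fit with the 6 h values added gave 49.8 h for Atp6v0a1, 85.8 h for Atp6ap1 and 13.9 h for Atp6v1b2. The deposited normalized value of Atp6v0a1 was 1.24, 1.06, 1.09 and 1.25 at 0, 2, 4 and 6 h. For Atp6v0c and Atp6v0d2 the authors' deposited table gives 84.4 and 18.8 h, with an R squared of 0.0239 and 0.943. The fit with 6 h gave negative values for both (−7.51 and −15.1 h), from the counts of 10 to 35 given above.

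The 3′ UTRs of these genes were read for AU-rich words, since such elements mark many short-lived messages of macrophages. TATTTAT was found in the annotated 3′ UTR of 6 of the 10 genes and of 5 of the 8 tested ones, against 28.6% of 9567 tested genes with a 3′ UTR. The shorter word ATTTA, which TATTTAT contains, was found in 9 of 10 genes and in 7 of the 8 tested ones, against 67.9% of those tested genes. TGTANATA, the Pumilio word, was found in 2 of 10 genes and in 1 of the 8 tested ones, against 25.3%. Only the sense strand was read. The median 3′ UTR of the 8 tested genes was 928.5 bases long and that of all tested genes 1026. The first site of each gene is shown with 9 bases on either side, TATTTAT in capitals, to show the words in their place.
Atp6v0b: ccctactgtTATTTATtgctggttt
Atp6v0c: ctggatgttTATTTATaaaagattt
Atp6v0e: aaaaaaaatTATTTATatatatata
Atp6v1a: gcagttctcTATTTATtgtgctgtg
Atp6v1h: tgatttttgTATTTATtgtcctctg
Atp6ap1: ctctctcctTATTTATtcttgcccc
On mm10 these lie at chr4:117884566-117884590 (minus), chr17:24164073-24164097 (minus), chr17:26695608-26695632 (plus), chr16:44085615-44085639 (minus), chr1:5162390-5162414 (plus) and chrX:74304289-74304313 (plus). Atp6v0e held 4 such sites and the other genes 1 each. Whether the measured messages end at the annotated 3′ end was not tested, and a word is no evidence of binding.

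Of 13 tested genes for assembly and regulation of the pump 2 fell and 1 rose, near the shares of all tested genes (16.8% and 8.03%), with a median slope of 0.02. Vma21, which helps V0 to assemble in the endoplasmic reticulum, was at 137%, 164% and 174% of untreated at 2, 4 and 6 h and rose (slope 0.13 ± 0.03, edgeR adjusted p = 0.0338). Dmxl1, a rabconnectin of the complex that joins V1 to V0, fell (−0.09 ± 0.01, adjusted p = 0.0225), to 68.3% at 6 h, as did the assembly factor Tmem199 (−0.08 ± 0.02, adjusted p = 0.0426), to 69.6%. Without the 4 h library none of the 3 passed (adjusted p = 0.0995, 0.0956 and 0.164 for Vma21, Dmxl1 and Tmem199). In that setting 0.231% of all genes rose and 3.29% fell. Tmem199 was lost whichever library was left out (0.0683 to 0.199). With the deposited divisors, where 0.664% of all genes rose, Vma21 was not called (slope 0.05, edgeR adjusted p = 0.082). The abundant Tm9sf4 and Ccdc115 stood at 117% and 133% at 6 h (adjusted p = 0.0745 and 0.0525).

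Of the 3 tested transcription factors of the TFEB family 2 fell, against 16.8% of all tested genes. Tfeb, the namesake CLEAR factor, had 19.5, 10.5, 6.54 and 4.5 TMM-scaled CPM at 0, 2, 4 and 6 h, from 593, 455, 496 and 55 counts. It fell (slope −0.36 ± 0.03, edgeR adjusted p = 0.0156) and passed without any 1 of the 4 libraries (adjusted p up to 0.0451). Its relative Mitf fell to 44.6% (slope −0.20 ± 0.05, adjusted p = 0.0435; 0.0514 without the untreated and 0.093 without the 4 h library). Tfe3, the most abundant of the family here, stood at 70.9%, 71.9% and 76.0% (adjusted p = 0.21). Tfe3 and Mitf bent upward (edgeR adjusted p = 0.00433 and 0.00305), as did 18.0% of all tested genes, and Tfeb did not pass the bend test (0.289). With the deposited divisors Tfeb and Mitf also fell (edgeR adjusted p = 0.0126 and 0.0294), as did 45.8% of all tested genes. The median slope of the 3 genes with TMM was −0.20.

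The pump docks the Ragulator and Rag GTPase complexes that report amino acids to mTORC1. Of 11 tested genes of that group 1 passed the test, a fall, which is under the 16.8% of all tested genes that fell, and their median slope was 0.02. Flcn, the activating partner of RagC and RagD, fell to 19.6% of untreated at 6 h (slope −0.41 ± 0.07, edgeR adjusted p = 0.0282), and passed without any 1 of the 4 libraries (adjusted p up to 0.0462). The scaffold genes Lamtor1 and Lamtor5 and the GTPase Rragc stood at 115%, 136% and 108% at 6 h, none past the test. Among 16 lysosomal membrane genes 4 rose (Cd63, Lamp2, Clcn5 and Cd68) and 1, the chloride and proton exchanger Clcn3, fell to 74.2% (adjusted p = 0.0314), against 8.03% and 16.8% of all tested genes that rose and fell, with a median slope of 0.04. The glycoprotein Lamp2 stood at 157% of untreated at 6 h (slope 0.10 ± 0.02, edgeR adjusted p = 0.0348), and the abundant Lamp1 at 133% (adjusted p = 0.0643). Without the 4 h library, where 0.231% of all genes rose and 3.29% fell, none of these 5 calls was kept. Cd68 and Clcn5 were lost whichever library was left out. Clcn3 was lost without the 2 h library (adjusted p = 0.056) and Cd63 without the 6 h library (0.0634). With the deposited divisors Clcn3 alone of the 5 was called, a fall, where 45.8% of all genes fell and 0.664% rose.

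Of the 10 tested osteoclast-lineage genes, which include the pump gene Tcirg1, 1 passed the test, a fall, against 16.8% of all tested genes that fell, and the median slope was −0.0094. Nfatc1, the master transcription factor of osteoclasts, had 99.8, 53.3, 33.5 and 26.4 TMM-scaled CPM at 0, 2, 4 and 6 h (slope −0.33 ± 0.03, edgeR adjusted p = 0.0162; up to 0.0361 without any 1 library). Tnfrsf11a, the receptor for the osteoclast cytokine RANKL, stood at 75.9%, 68.9% and 71.5% (adjusted p = 0.0786), and the growth factor receptor Csf1r at 113% at 6 h (adjusted p = 0.147). Of the 8 macrophage markers 2 rose (the lysozyme Lyz2, at 187% of untreated at 6 h, and Cd68, at 124%) and 1 fell, the lineage factor Spi1, at 73.2%, against 8.03% and 16.8% of all tested genes, with a median slope of 0.05. None of these 3 passed without the 4 h library, where 0.231% of all genes rose and 3.29% fell. Lyz2 and Spi1 passed without any other 1 library. With the deposited divisors Lyz2 rose (edgeR adjusted p = 0.027, against 0.664% of all genes) and Spi1 fell (0.0153, against 45.8%), while Cd68 was not called (0.131).

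**Figure D5:**
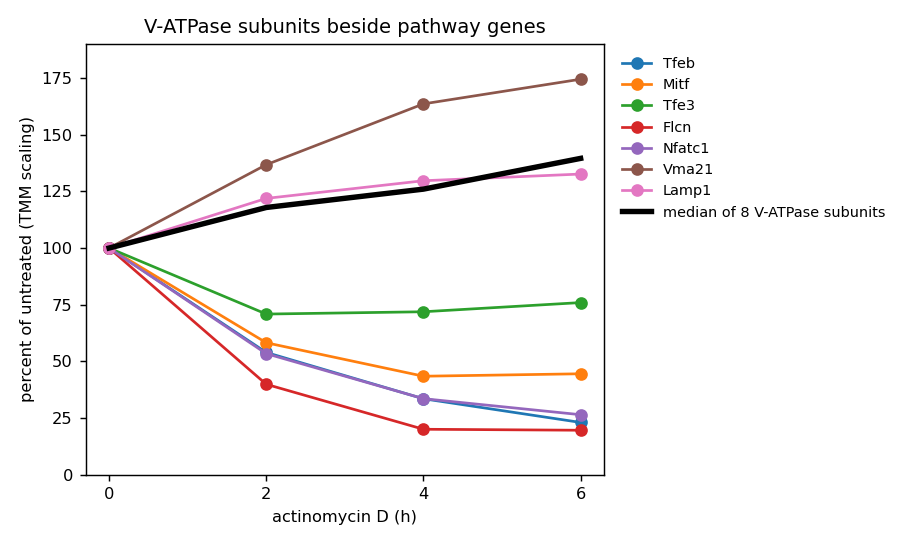
Percent of the untreated library after TMM scaling (y axis) against hours of actinomycin D (x axis), 1 library per time, for the median of the 8 abundant V-ATPase genes (black) and 7 genes of the fixed pathway lists. The black line ends at 139.5%, near Lamp1 at 133%, while Tfeb, Flcn and Nfatc1 end at 23.1%, 19.6% and 26.5%. The 7 genes were picked and do not stand for their lists. Flcn and Nfatc1 are the only called genes of lists with median slopes of 0.02 and −0.0094 log2 per h.

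Genes with the course most like that of the pump were sought among 3815 others with a mean of at least 50 CPM, by Euclidean distance over the log2 changes at 2, 4 and 6 h in these 4 libraries. The nearest was Parvg, a hematopoietic actin-linked adaptor (distance 0.0052), with changes of 0.24, 0.34 and 0.48 against medians of 0.24, 0.33 and 0.48 for the 8 pump genes. Next came the lysosomal carboxypeptidase Ctsa (0.0182), the tetraspanin Cd37 (0.0213), the centriole gene Cep83 (0.0242) and the RNA helicase Skiv2l (0.027). With 3 values per gene many genes lie close to any course.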

How the data were processed

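RNA of 4 libraries was counted per gene by the authors. STAR 2.5.3a, featureCounts and Subread 1.6.3 on mm10 are named in the submitters' processing notes; the annotation release, strand setting and treatment of multiply matching reads were not given in the sources used here. The deposited raw counts per gene were used as deposited. The normalized signal columns, per the file headers, equal the counts divided by 1 whole number per library (1300, 2250, 4476 and 748), as recomputation showed. The authors' half-life (taken as a score) and R squared (also a score) were deposited beside them. Columns not matched to a sample numbered 0.

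Slopes and bends (the squared time term) were fitted by edgeR 4.0.16 in R 4.3.3 with TMM. All genes with a mean of at least 1 CPM entered. With all 4 libraries the fits left 2 and 1 residual degrees of freedom per gene, and the slope fits left fewer when a library was left out. As edgeR draws each gene's spread towards that of the other genes, the p-values rest on more than these. The SE printed with an edgeR slope or bend is its absolute value divided by the square root of the F statistic of its test. Calls were made at a Benjamini-Hochberg adjusted p under 0.05. The fits were tested on simulated counts with an assumed spread between libraries: most steep slopes and most strong bends were recovered, but no slope of the size of the pump genes' slopes was, so at that spread the test would miss such genes and their calls rest on the small spread fitted to these libraries. DESeq2 1.42.0 was an alternative, as were other scalings (79 ribosomal protein genes in one), filters and left-out libraries. Percentages of untreated carry exact 95% counting intervals, which cover counting error only. Whether times came from separate cultures is not stated, so p-values measure the spread of these libraries, which may be technical.

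Annotation and transcripts came from GENCODE (mm10), promoters from RefSeq. The genes and lists were chosen with earlier results of these data known. Named are the 10 genes, the 3 most abundant and the called genes of each list, and the 5 most alike courses; further genes named were chosen after their values were seen.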

Additional observations from a re-analysis of the deposited data

How the results depend on the processing

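The count of pump genes that rose (6 of 8) stayed within 1.5 times with DESeq2 size factors, without a filter, with a stricter filter of 5 CPM and with the DESeq2 test (7), and was 0 with total counts, 1 with ribosomal protein scaling and 0 with the deposited divisors. It ranged from 0 to 5 when each library was left out. Other subunits that rose (3) numbered 0, 1 and 0 under those 3 scalings, where 1.89%, 1.14% and 0.664% of all tested genes rose. With a library left out they numbered 0 to 3, where 0.231% to 11.7% of all tested genes rose. With the deposited divisors 3 other subunits fell, as did 45.8% of all tested genes. The median slope of the pump genes was 0.10 with total counts, 0.0206 with ribosomal protein scaling and −0.0084 with the deposited divisors, and 0.0569 to 0.0844 with a library left out. Slopes turned negative with ribosomal protein scaling for Atp6v0b (−0.0052) and Atp6v1b2 (−0.0286), and with the deposited divisors for Atp6v0b (−0.0342), Atp6v0d1 (−0.0245), Atp6v1b2 (−0.0575), Atp6v1h (−0.0088) and Atp6ap1 (−0.0081). Of all tested genes 870 rose with TMM, 205 with total counts, 124 with ribosomal protein scaling, 72 with the deposited divisors, 1529 with the DESeq2 test and 25 to 1264 with a library left out; 1817 fell with TMM, 4963 with the deposited divisors and 357 to 2314 with a library left out. Pump genes that bent numbered 1 with TMM, 6 with total counts and 2 with the deposited divisors, and all genes that bent 5444 with total counts, against 3101 with TMM. The shift of the median gene between scalings is given with the slopes, and no spike-in is named in the sources used here. Counts of 10 to 35 limit Atp6v0c and Atp6v0d2 in every library. No paired analysis was possible because each group holds 1 library.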
